A study of Mus musculus with 4 samples.

Results

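The comparison described here set thymus of Camk2g knockout mice against thymus of wild-type mice, neither of which had received the carcinogen N-methyl-N-nitrosourea (MNU). Each side was 1 RNA sequencing library, so 2 of the 4 libraries of the study formed the comparison. All genes with a mean of at least 10 normalised counts over the 4 libraries were taken, which kept 10587 of 10598. The 11 genes removed were small nucleolar RNAs and microRNAs. The nearest to the limit on the low side was Mir1898, with a mean of 9.95, and the nearest on the high side was Snord95, with a mean of 10.8.

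All mice were C57BL/6J. The knockout carried the genotype CAMKIIgamma-/- and both libraries compared here came from animals kept for 6 months after vehicle. The other 2 libraries, wild type and CAMKIIgamma-/- with MNU, came 6 months after MNU, given once into the peritoneum at 75 mg/kg when mice were 4 to 5 weeks old. The labels do not say how the knockout allele was built, how many mice stood behind a library or which sex they were. No group had a replicate, so the values below compare these libraries, not the genotypes, and no p-value was computed.

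Calcium/calmodulin-dependent protein kinase II is a multimeric kinase that is switched on when calcium-loaded calmodulin binds it, and it can stay active after the calcium signal ends. Camk2g encodes its gamma subunit, and the alpha, beta and delta subunits are encoded by separate genes. In thymocytes, calcium rises when the T-cell receptor is engaged, and most cells of a young thymus are double-positive thymocytes, which carry both CD4 and CD8 and still rearrange the T-cell receptor alpha locus. The study's title names stabilisation of the c-Myc protein by this kinase in T-cell lymphoma, and the libraries without MNU are the ones in which the effect of genotype could be read apart from the lymphoma-inducing treatment.

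The targeted gene was low, but not absent, in the library labelled knockout without MNU. Camk2g had 2749 normalised counts in wild type and 489 in knockout without MNU, against 3173 and 29.7 with MNU. The knockout library without MNU thus kept 17.8% of the wild-type level, and its difference was -2.47 on the log2(value + 10) scale that is used for every difference below. Knockout with MNU differed from the same wild-type library by -6.12. The tissue label was met by its markers. Thymocyte genes (Rag1, Rag2, Cd4, Cd8a and Ptcra, the pre-T-cell receptor alpha chain) and thymic epithelial genes (Foxn1, Psmb11, Aire, Krt5) were all read in both libraries without MNU, and each of them lay within 2-fold between them.

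The remaining Camk2g signal stood at a level that a share of the wild-type MNU library would give. A set of 42 genes, 39 of them distinct rows, had over 1000 normalised counts in the wild-type MNU library, a level over 20 times that in each of its 2 controls, untreated wild type and the knockout that received MNU. In the knockout library without MNU these genes stood at a median of 15.4% of their level in wild type with MNU. The 5th to 95th percentile of the genes was 13.9% to 18.5%, and the range ran from 13.2% for Rpl3l to 21.4% for Trnp1. Camk2g was not among the 42 genes. Its own excess over knockout with MNU corresponded to 14.6%, and 15.4% of its level in wild type with MNU came to 488, against 489 observed. Whether the share arose in the animal, in the tissue or in the library was not tested.

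The share sets what can be read from the comparison. A mix of 84.6% of the wild-type library without MNU and 15.4% of the one with MNU was calculated for each gene, which is the level the share alone would give with no effect of genotype. A gene had to be 7.51-fold higher with MNU than without in wild type to pass 2-fold in this mix. The 42 genes that set the share met this by the way they were chosen. By the mix alone, 146 genes (1.38%) were at least 2-fold higher and 0 (0%) were at least 2-fold lower, since the lowest difference it could give was -0.24. So the share could account for increases, and for no decrease past 2-fold.

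As deposited, 274 of 10587 genes (2.59%) were at least 2-fold higher in the library labelled knockout than in wild type and 38 (0.359%) were at least 2-fold lower. The 274 held 271 distinct rows and 36 provisional gene symbols. Most genes hardly moved: 97.1% lay within 2-fold and 77.3% within 1.2-fold, and the median difference was -0.0006. A gene list without a member past 2-fold thus lies near the share over all genes. At 4-fold, 92 genes were higher and 4 were lower, the 4 being Pth, Chga, Camk2g and Cdk5rap1.

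**Figure D1:**
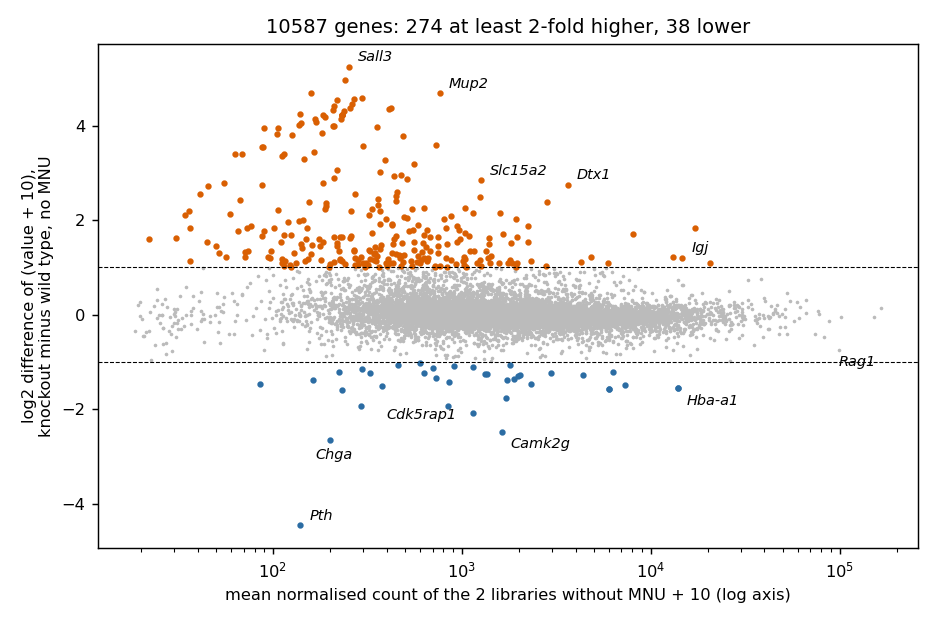
Difference of log2(value + 10) between knockout and wild type without MNU (vertical axis) against the mean normalised count of both libraries plus 10 (horizontal log axis), 1 point per gene. Orange points are the 274 genes at least 2-fold higher, blue points the 38 at least 2-fold lower, grey points the rest, and dashed lines mark 2-fold.

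Taking 15.4% of the wild-type MNU library away from the knockout library and rescaling the rest left 182 genes (1.72%) at least 2-fold higher and 53 (0.501%) at least 2-fold lower. Of the 274 increases, 132 remained and 50 other genes passed the threshold. Of the 38 decreases, 30 remained and 23 other genes passed. Among the latter was Olig3, with 292 in wild type and 460 in knockout without MNU, against 2971 and 34.8 with MNU. Its difference was 0.64 as deposited and -4.45 after subtraction, and the share stood for 99.3% of its value in knockout without MNU. Foxb1 went from 0.76 to -1.74. Both the mix and the subtraction were used to sort the 274 genes into 4 groups. In 109 of them the mix passed 2-fold and the subtraction removed the call, with a median difference of 1.83 before and 0.04 after. In 104 the mix stayed within 2-fold and the call remained, with medians of 1.38 and 1.44. Another 28 passed both ways, and 33 passed neither, with medians of 1.10 before and 0.74 after. The 42 genes that set the share all lay among the 109 or the 28. Their passing in the mix was fixed by how they were chosen, and the subtraction was scaled to them. The counts of 109 and 28 and their medians are therefore no independent check of the share. In 53 of the 109 genes the observed difference was no larger than in the mix. In 41 of them 1.2-fold or more was left after subtraction, up to 0.97 in Jdp2 and 0.94 in Marco, so that the share gave part of the difference there. In the 104 and in the 33 the mix stayed within 2-fold, so the share could not give their call on its own. Of these, only the 104 kept the call after subtraction.

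**Figure D2:**
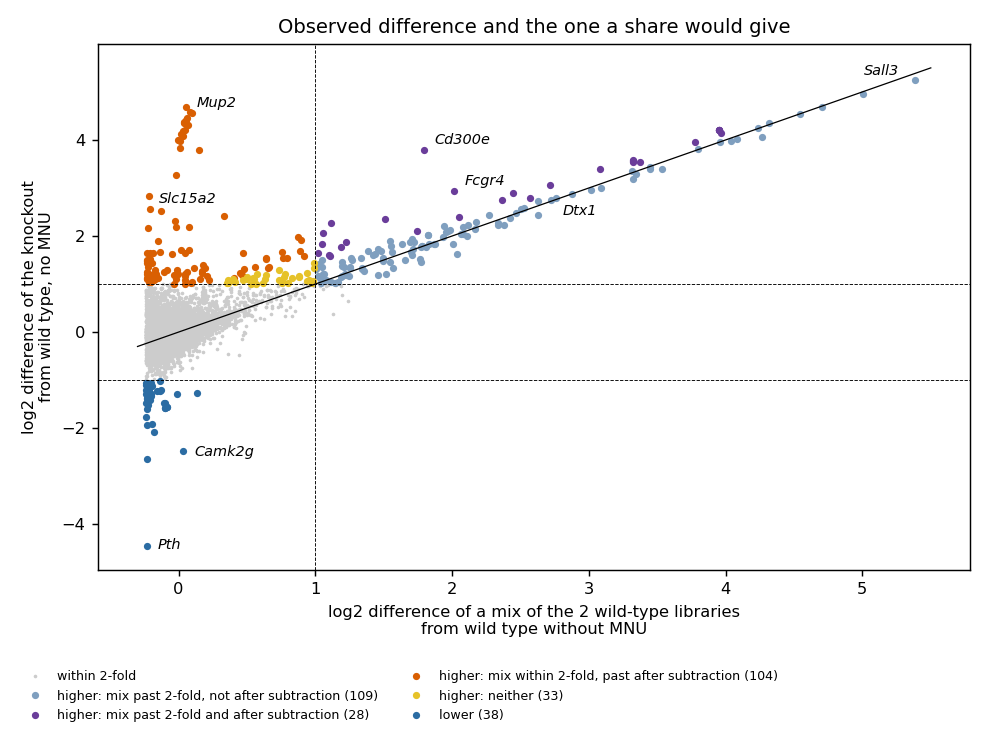
Observed difference from wild type without MNU (vertical axis, log2) against the difference of the calculated mix of both wild-type libraries (horizontal axis, log2), 1 point per gene. The solid line marks equality and dashed lines mark 2-fold. Sall3, which belongs to the 42 genes that set the share, lies on the line at 5.24 observed and 5.38 calculated. Mup2 and Slc15a2 lie high at a calculated difference near 0.

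The genes with the largest increases that lay on the line were genes of the wild-type MNU library. Sall3, a zinc-finger transcription factor of neural and limb development, had 2.96 in wild type and 480 in knockout without MNU, against 3434 and 1.05 with MNU. Its difference was 5.24 as deposited and -0.37 with the share subtracted. Erc2, a scaffold of the presynaptic active zone, had 4.95, 456, 3023 and 9.23 in the same order. For both genes the knockout without MNU was the only library between the very high and the near-0 level. Both belong to the 42 genes that set the share, so the mix and the subtraction are no independent check of them.

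Others of this kind were the cytokine gene Il22 with its near-identical copy Iltifb (4.24 and 4.68 as deposited, 0.12 and -0.26 after subtraction) and Cym, the gastric protease chymosin (4.54 and -0.02). Sh3gl3, an endophilin, went from 4.35 to 0.66. Il22, Iltifb, Cym and Sh3gl3 also belong to the 42 genes that set the share, as do Dpf1, Vwce and Dtx1, while Notch1 does not. For Dpf1 the difference went from 3.98 to -2.09 and for Vwce from 3.18 to -3.47, because the subtraction took more than was there and the value was set to 0, as happened in 14 genes. Genes of the NOTCH pathway went the same way. NOTCH receptors are cleaved on ligand binding and drive T-lineage commitment, and Dtx1 is a direct target gene. Dtx1 had 931, 6307, 35307 and 978 in wild type and knockout without MNU and wild type and knockout with MNU, and its difference of 2.75 fell to 0.16 after subtraction. Notch1 had 7913, 18411, 76273 and 8987, and its difference of 1.22 became -0.0021. Of 16 measured NOTCH receptors and targets, 3 were higher as deposited (Dtx1, Heyl and Notch1), all 3 passed 2-fold in the mix, and 0 were higher after subtraction, while the list median went from 0.31 to -0.03. The 15 measured early thymocyte and pre-T genes, which share members with that list, had a median of 0.47 as deposited and -0.06 after subtraction.

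The largest increases that the share could not give were in the major urinary protein (Mup) genes. These encode lipocalins that bind pheromones and are made mainly in liver under growth hormone and androgen control, and Mup transcripts are also among the tissue-restricted genes read in thymic epithelium. The sex of the mice is not given. Of 6 measured sex-linked genes 0 passed 2-fold, with differences from -0.19 to 0.08. Kdm5d, Uty, Ddx3y and Eif2s3y were not among the measured genes. Whether sex differed between the libraries was not tested. Mup2 had 47.6 in wild type and 1465 in knockout without MNU, against 61.2 and 388 with MNU. That is 30.8-fold higher without MNU, a difference of 4.68, or 4.91 after subtraction. Both knockout libraries were above both wild-type libraries.

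The same held for all 14 measured Mup genes. They ranged from 8.91 to 47.6 in wild type without MNU, from 12.0 to 61.2 in wild type with MNU, from 311 to 1465 in knockout without MNU and from 91.9 to 388 in knockout with MNU. Their differences without MNU lay between 3.84 and 4.68, and the knockout library with MNU differed from the same wild-type library by 2.09 to 2.79. Between the knockout libraries the ratio was 3.01 to 3.80 for every member. The genes are not 14 separate observations: of the 50-base windows of their annotated transcripts, from 61.0% (Mup1) to 100% (Mup15) also occur in another measured Mup gene, and 98.4% of those of Mup2 do. Reads can therefore be split or shared between the copies, and which copies were transcribed cannot be told from these values.

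The sequences before the start sites are shown for Mup2 and for 2 of the copies most like it there. The 120 bases before the RefSeq start (build GRCm38.p6, minus strand, written 5′ to 3′ along the gene) are given for Mup2 at chr4:60139857-60139976, Mup17 at chr4:61595833-61595952 and Mup9 at chr4:60421953-60422072, with the letters TATAA in capitals.
Mup2: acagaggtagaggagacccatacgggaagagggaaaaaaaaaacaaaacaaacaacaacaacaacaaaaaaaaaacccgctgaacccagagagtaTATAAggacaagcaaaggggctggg
Mup17: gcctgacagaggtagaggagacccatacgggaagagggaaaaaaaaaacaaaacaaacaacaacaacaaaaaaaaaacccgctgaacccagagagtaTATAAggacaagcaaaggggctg
Mup9: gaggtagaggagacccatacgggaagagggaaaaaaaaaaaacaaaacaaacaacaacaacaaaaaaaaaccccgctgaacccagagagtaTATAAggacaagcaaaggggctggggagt
The TATAA starts 25, 23 and 29 bases before the start of Mup2, Mup17 and Mup9. The longest run shared with Mup2 was 65 bases in Mup17 and 45 in Mup9. The windows of the other copies are not all as alike as placed by their RefSeq starts. By edit distance, 8 copies had an identity with Mup2 from 37.5% (Mup7) to 91.7% (Mup17), and the windows of Mup7, Mup11 and Mup14 lack that motif. The Mup11 window, with 53.3% identity, shares a run of 42 bases with Mup2. It ends with the bases that stand just before TATAA in Mup2. A low identity or a missing motif can thus come from the place of the window, and is not read as a difference between the promoters. TATAA was searched on both strands and occurs in 11.8% of the same window of 32851 promoters. The match is a description of the sequence, and these data hold no measurement of binding there.

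Some keratins and other epithelial genes were higher as well. Krt15, a keratin of basal epithelial cells, had 69.4 in wild type and 456 in knockout without MNU, against 0.82 and 179 with MNU. Its difference was 2.55, and 2.79 after subtraction. Of 11 measured keratin genes, 3 were at least 2-fold higher (Krt15, Krt6b at 1.29 and Krt6a at 1.13), 0 were lower and 9 were above wild type, with a median of 0.74. Krt14 and Krt5, the pair of basal keratins that marks medullary epithelium in thymus, stood at 0.89 and 0.74. Krt8 and Krt18, the pair of simple epithelium and cortex, stood at 0.01 and 0.13. Krt17 and Krt10, which like Krt5 and Krt14 belong to stratified epithelium, stood at -0.02 and -0.17, so the keratins of stratified epithelium did not all lie above wild type.

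**Figure D3:**
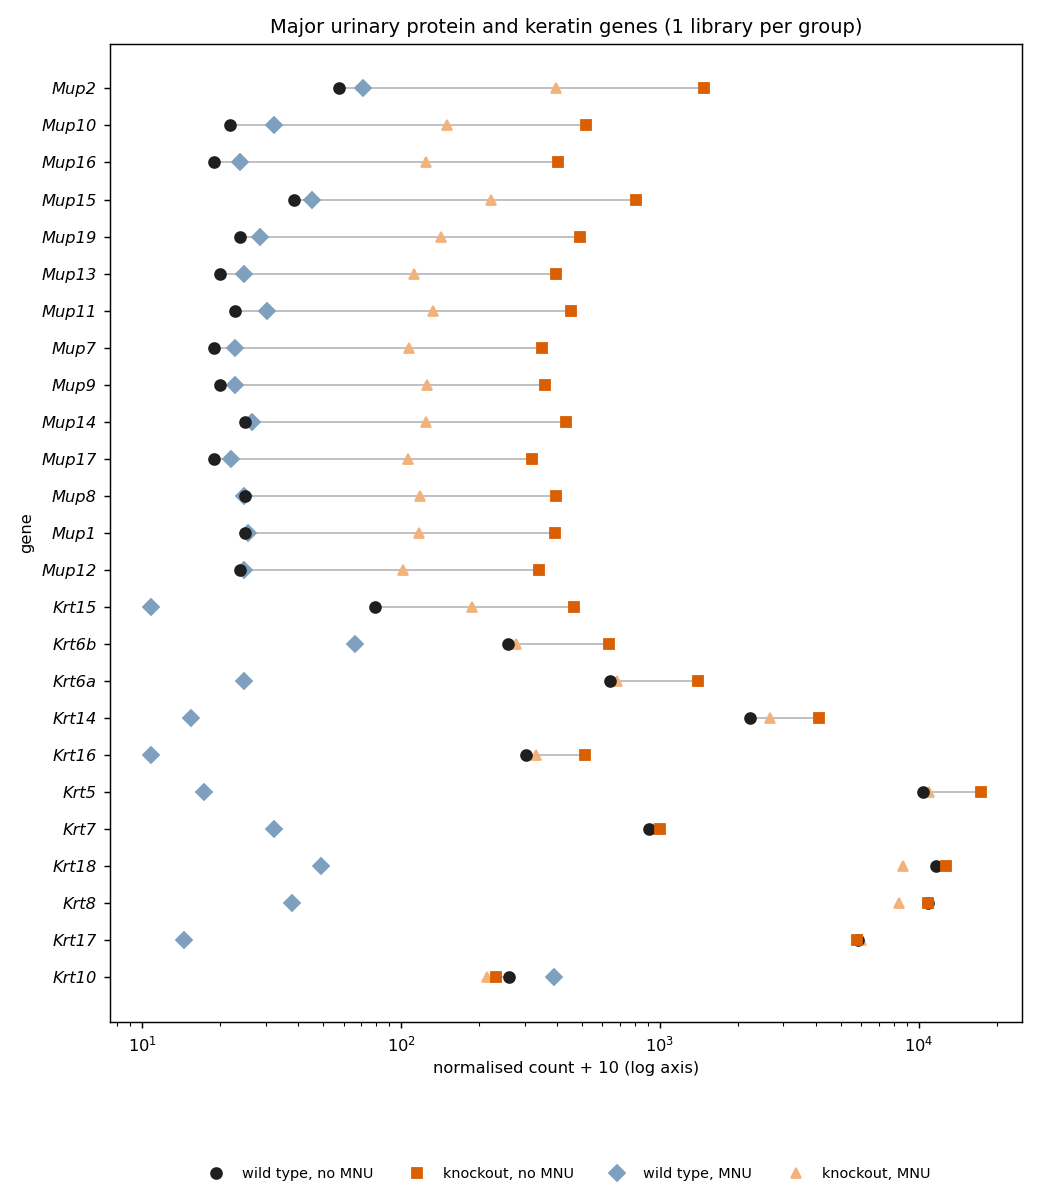
Normalised count plus 10 (horizontal log axis) of the 14 Mup and 11 keratin genes in the 4 libraries, with a grey line joining both libraries without MNU. In every Mup row the squares (knockout without MNU) lie farthest right and the triangles (knockout with MNU) next, while the keratins are lowest in wild type with MNU except Krt10.

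Among the other increases that the share could not give, Slc15a2, a proton-coupled peptide transporter, had 300 in wild type and 2213 in knockout without MNU, against 15.7 and 4827 with MNU. Tmem45b had 63.4, 702, 57.5 and 739 in the same order, and Cyp2f2, a cytochrome P450 of airway club cells, had 111, 594, 97.5 and 722. In these 3 genes both knockout libraries were above both wild-type libraries, with differences without MNU of 2.84, 3.28 and 2.32.

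Fam107a had 55.5 in wild type without MNU and 896 in knockout without MNU (3.79), but 167 in knockout with MNU. Tns4, an adhesion adaptor of epithelial cells, had 408 and 1854 (2.16), with 966 in knockout with MNU. Aqp3, a water and glycerol channel of keratinocytes, had 123 and 750 (2.51), with 363. Car12, a carbonic anhydrase, had 132 and 743 (2.41), with 370 in wild type with MNU and 171 in knockout with MNU. Their increase was thus smaller in the knockout library with MNU than in the one without.

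As whole lists, genes of the thymic epithelium had medians close to 0 as deposited. Of 15 measured medullary epithelial genes, 1 was higher (Ehf, 1.36) and 0 were lower, with a median of 0.02, and their summed level was 89885 in wild type and 97510 in the library labelled knockout. Of 19 cortical epithelial genes, 1 was higher (Isl1, 1.44) and 0 were lower, with a median of -0.03 and sums of 155531 and 150371. The mix gave both lists a median of -0.23, and after subtraction the medians were 0.23 and 0.18, with 3 medullary genes and 1 cortical gene higher. Aire, the regulator that opens tissue-restricted genes in medullary epithelium, had 797 and 695 (-0.20, against -0.23 in the mix). Foxn1, the master regulator of thymic epithelium, had 821 and 706 (-0.21, against -0.24 in the mix), and was listed at 0 in wild type with MNU. In bulk tissue a change in the number of cells of a type and a change in RNA per cell cannot be told apart.

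Some genes of natural killer (NK) and cytotoxic cells were higher, and the mix alone passed 2-fold in 0 of those measured. Klrk1, which encodes the activating receptor NKG2D, had 316 in wild type and 1016 in knockout without MNU, against 1.75 and 858 with MNU. That is 3.21-fold higher without MNU (1.65; 1.89 after subtraction). Klrb1c, the NK1.1 receptor, had 217, 630, 12.0 and 544 in the same order (1.49; 1.73 after subtraction). Both genes were near 0 in wild type with MNU, so the share could only lower them.

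Of 17 measured NK and cytotoxic genes, 5 were at least 2-fold higher (Klrk1, Klrb1c, the chemokine gene Ccl4 at 1.34, the granule gene Nkg7 at 1.15 and Klrc2 at 1.13), 0 were lower and 14 were above wild type. The median was 0.81, and 7 were higher after subtraction. Their summed level was 10574 in wild type and 15865 in knockout without MNU, against 6680 and 17414 with MNU. Klra9, an inhibitory receptor gene, was at -0.47. Prf1, the pore-forming protein perforin, stood at 0.81 and owed more to the share, with 0.48 in the mix and 0.51 after subtraction. Of 9 measured gamma-delta and innate-like T cell genes, 3 were higher (Cxcr6 at 1.53, Blk at 1.10 and 5830411N06Rik at 1.01), and their median was 0.46. After subtraction Blk stood at 0.99 and 5830411N06Rik at 0.90, which left 1 gene, Cxcr6, past 2-fold. Cxcr6, a receptor that places innate-like lymphocytes in tissue, had 312 in wild type and 919 in the library labelled knockout, with 31.5 in wild type with MNU and 957 in knockout with MNU. NK cells, natural killer T cells and memory T cells share many of these transcripts, and which of them carried the signal was not tested.

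Some B cell and plasma cell genes were higher too. Igj, the joining chain of secreted antibody, had 8896 in wild type and 20492 in knockout without MNU, against 356 and 26869 with MNU (1.20; 1.44 after subtraction). Derl3, an endoplasmic reticulum degradation factor of secretory cells, had 103, 344, 12.9 and 443 (1.65). Of 13 measured plasma cell genes, 3 were higher (Derl3, Igj and 2010001M09Rik at 1.16) and 0 were lower, with a median of 0.61, and their summed level was 64706 in wild type and 75040 in the library labelled knockout. Xbp1, the transcription factor of the secretory programme, was at 0.10, and 0 of 25 unfolded protein response genes were at least 2-fold higher or lower. Of 19 measured B cell genes, 2 were higher (Blk at 1.10 and Cd72 at 1.04), 0 were lower and 17 were above wild type. Their median was 0.46, with the surface genes Cd79a at 0.79 and Ms4a1 at 0.64, and the summed level was 14426 in wild type and 17487 in the library labelled knockout. In knockout with MNU that sum was 25451.

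**Figure D4:**
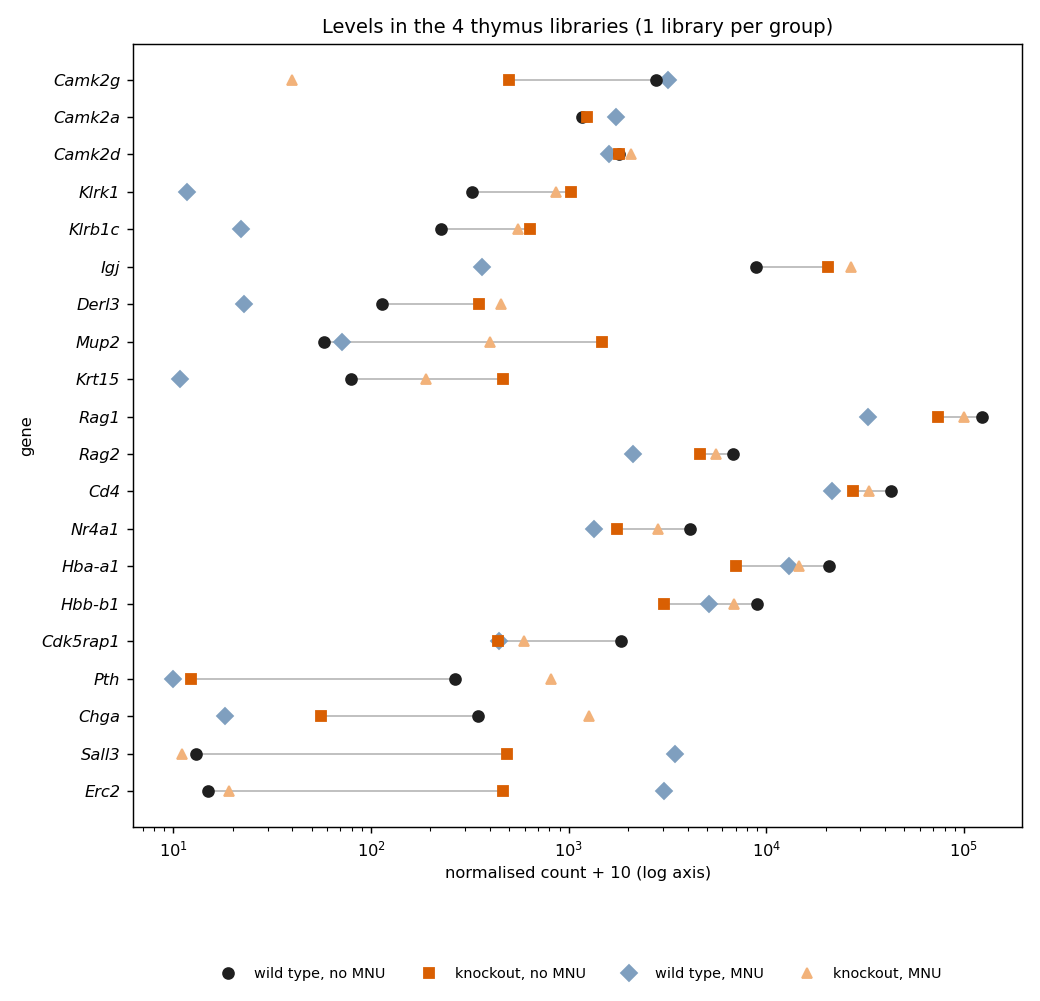
Normalised count plus 10 (horizontal log axis) of 20 genes in the 4 libraries, 1 point per library, with a grey line joining both libraries without MNU. Klrk1, Klrb1c, Igj, Derl3, Mup2 and Krt15 are higher in both knockout libraries than in both wild-type libraries, and Sall3 and Erc2 are between the wild-type MNU level and the other 2 libraries in knockout without MNU alone.

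Macrophage genes were higher as a list, some of them at levels that the share alone would give. Of 28 measured members, 27 were above wild type and 7 at least 2-fold higher, with a median of 0.73 and sums of 99535 in wild type and 153088 in knockout without MNU, against 158739 and 182725 with MNU. In 4 of the 28 genes the mix alone passed 2-fold, and after subtraction 3 were higher and the median was 0.72. Marco, a scavenger receptor, had 27.8, 165, 727 and 8.21 in wild type and knockout without MNU and wild type and knockout with MNU, and its difference went from 2.21 to 0.94. Hmox1, which breaks down haem, went from 1.35 to 0.35. Cd5l, a secreted factor of tissue macrophages, had 180, 787, 1523 and 2451 and kept its call (2.07 and 1.80), as did Gpnmb (1.78 and 1.24). Lineage genes moved less: Csf1r, the receptor of macrophage colony-stimulating factor, stood at 0.63, Cd68 at 0.60 and C1qa at 0.42.

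Single myeloid receptors stood out more than that list. Fcgr4, an activating antibody receptor, had 91.2 in wild type and 768 in knockout without MNU, against 2089 and 1303 with MNU (2.94; 2.41 after subtraction). Cd300e, an activating receptor of monocytes, had 6.93, 225, 279 and 484 in the same order, a difference of 3.80 against 1.79 in the mix. Clec4a1 and Sirpb1a were at 1.92 and 1.97, and stayed at 1.71 and 1.79 after subtraction. In these 4 genes all other libraries were above wild type without MNU.

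Of 36 measured chemokine and chemokine receptor genes, 11 were higher, 0 were lower and 25 lay within 2-fold, with a median of 0.33. In 4 genes the mix alone passed 2-fold, and 9 were higher after subtraction. Ccl8, a monocyte attractant, had 348 in wild type and 1709 in knockout without MNU, against 3065 and 749 with MNU (2.26; 2.04 after subtraction). Ccl12 and Cxcl14 were at 1.64 and 1.62, and the receptors Cxcr6 and Cxcr3 of effector lymphocytes at 1.53 and 1.44. Cxcl13, the attractant of B cell follicles, went from 2.02 to 0.69 after subtraction, Ccl6 from 1.73 to 0.73 and Ccl9 from 1.34 to 0.23. By construction the subtraction lowers only genes whose level in wild type with MNU is above that in knockout without MNU. That some of these genes fell and others did not follows from those levels, and is no separate result.

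Genes of the double-positive stage were lower by small amounts, with 0 of 32 measured members past 2-fold and 28 below wild type. Their median was -0.37 (-0.31 after subtraction), against -0.0006 over all genes, and their summed level was 813000 in wild type and 606424 in the library labelled knockout. Rag1, a subunit of the recombinase, had 123683 in wild type and 73746 in knockout without MNU, against 32664 and 99894 with MNU (-0.75; -0.61 after subtraction). Its partner Rag2 was at -0.55, Cd4 at -0.64 and the developmental regulator Themis at -0.59, and the largest decrease was in the channel gene Aqp11 at -0.91. The mix gave these 32 genes a median of -0.10, less than was observed. Both knockout libraries were below wild type without MNU for Rag1, Rag2, Cd4 and Themis, and the knockout with MNU had a list median of -0.19. Wild type with MNU was lower still for these genes. The list sums with MNU were 482469 in wild type and 714283 in knockout. Wild type without MNU thus had the highest sum, and both knockout comparisons rest on that 1 library.

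Of 21 genes of the T-cell receptor complex and its proximal signalling, 0 passed 2-fold and 17 were below wild type, with a median of -0.25. Cd5, whose level follows receptor signal strength, had 7081 in wild type and 4090 in knockout without MNU, against 1476 and 6793 with MNU (-0.79). In knockout with MNU the same list had a median of 0.04 against the same wild-type library, so the lower level was not seen in the second knockout library. For the 33 measured genes of mature single-positive T cells the median was 0.08, with 17 above and 16 below wild type. Il7r, the interleukin-7 receptor, stood at 0.84 and Gimap3, a GTPase of lymphocyte survival, at 0.83. Of 14 regulatory T cell genes, 3 were higher: Folr4 at 1.21, the cytokine signalling inhibitor Socs2 at 1.13, and Gpr83, whose 1.55 fell to 0.18 after subtraction. The receptor gene Il2ra stood at 0.47, no more than the 0.52 of the mix, and at -0.086 after subtraction. For the checkpoint receptor Ctla4 the difference was 0.45.

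Of the genes induced early after receptor or stress signals, Nr4a1 and Dusp5 were lower. Nr4a1, an orphan nuclear receptor induced by T-cell receptor signalling, had 4126 in wild type and 1758 in knockout without MNU, against 1333 and 2809 with MNU (-1.23; -1.16 after subtraction). Dusp5, a phosphatase of ERK, had 872, 364, 347 and 500 (-1.24). Of 21 measured immediate-early genes these 2 were at least 2-fold lower, 0 were higher and 17 were below wild type, with a median of -0.37, against -0.14 in the mix and -0.24 after subtraction. Btg2 was at -0.73, Junb at -0.71, Fos at -0.64 and Egr1 at -0.52, and Rgs1 went the other way at 0.47. Both knockout libraries were below wild type without MNU for Nr4a1, Dusp5, Btg2, Junb, Fos and Egr1. The summed level of the list was 68657 in wild type and 49414 in knockout without MNU, against 30044 and 55488 with MNU. Wild type without MNU thus had the highest sum, and both knockout comparisons rest on that 1 library.

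**Figure D5:**
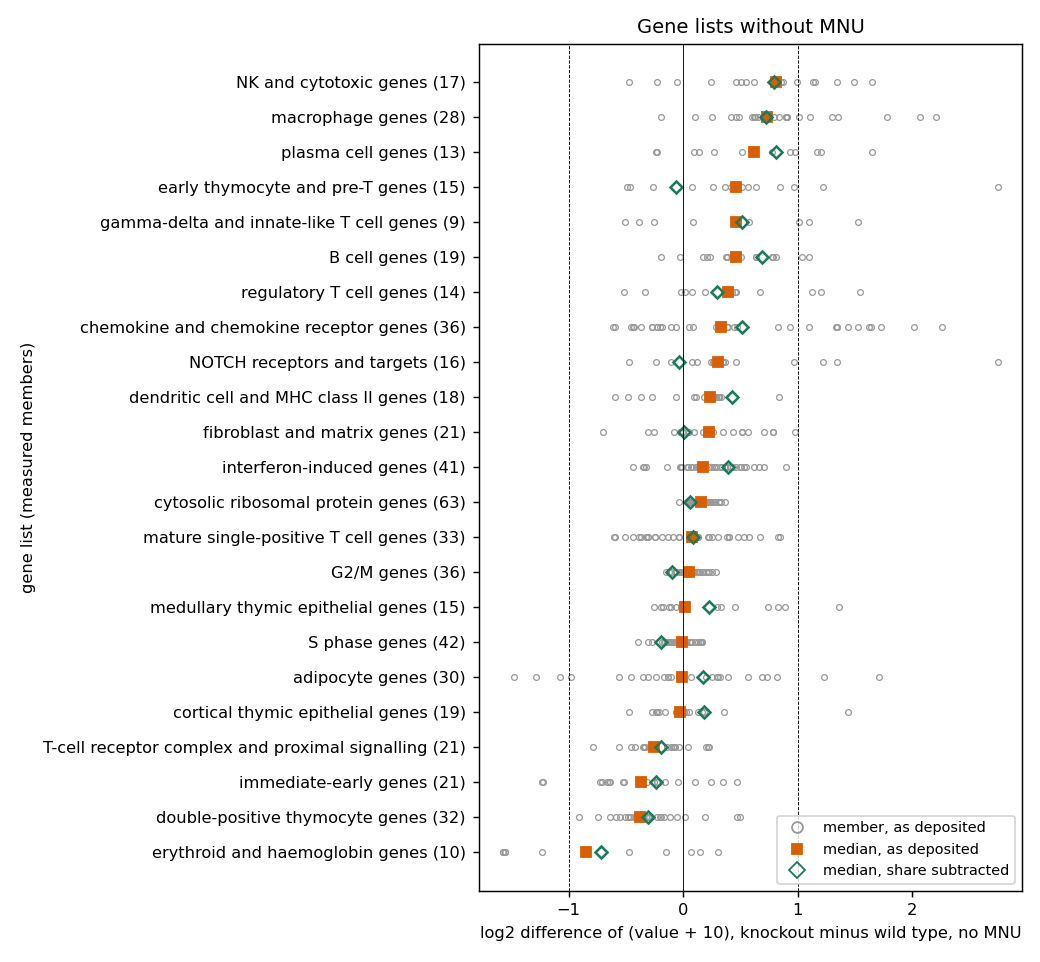
Differences of log2(value + 10) between knockout and wild type without MNU (horizontal axis) for the measured members of 23 gene lists, with the number of measured members in brackets. Grey circles are genes, squares are list medians as deposited and diamonds are medians with the share subtracted. Squares and diamonds lie close for NK genes (0.81 and 0.79) and apart for early thymocyte genes (0.47 and -0.06).

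Genes of the kinase family other than Camk2g stayed within 2-fold of wild type, as did 97.1% of all genes. Of 16 measured calcium/calmodulin-dependent kinase genes, Camk2g was the 1 at least 2-fold lower and 0 were higher, with a median of -0.07. Camk2a had 1153 in wild type and 1231 in knockout without MNU, against 1726 and 1202 with MNU (0.09). Camk4, the nuclear kinase of thymocytes that acts on CREB, was at -0.44, its activator Camkk1 at -0.37 and Camk1 at 0.33. None of the 4172 windows of 50 bases in Camk2g transcripts (0%) occurs in Camk2a, Camk2b or Camk2d, so reads of that length would not be shared between them. Of 16 genes of calcineurin and NFAT, the other calcium-dependent arm, 0 passed 2-fold, and the catalytic subunit gene Ppp3cc had the largest difference, 0.79 (374 in wild type, 653 in the library labelled knockout and 633 in knockout with MNU). Myc itself had 2654 in wild type and 2574 in knockout without MNU, against 3303 and 2736 with MNU, a difference of -0.04. The study's question concerns the Myc protein, which these data do not measure. Of 10 measured genes of the MYC network, 0 passed 2-fold, and the median was -0.09.

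The genes next to Camk2g on chromosome 14 were examined because a targeted allele carries its surroundings with it. All 20 measured neighbours, 10 on each side in the RefSeq order, lay within 2-fold, with a median of 0.06. Of all genes 97.1% lay within 2-fold, so the count does not set the neighbours apart. The lowest was Anxa7 at -0.41. The highest was Ndst2, a heparan sulfate enzyme gene next to Camk2g, which had 1060 in wild type and 1671 in knockout without MNU, against 2027 and 1583 with MNU (0.65). Plau, the neighbour on the other side, was at 0.11.

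Cell-cycle and growth genes did not differ past 2-fold, which was also the case for 97.1% of all genes. Of 42 S phase genes and 36 G2/M genes, 0 and 0 were higher or lower, with medians of -0.01 and 0.05, and after subtraction -0.20 and -0.09. Of 63 cytosolic ribosomal protein genes, 62 were above wild type, but the median was 0.16 as deposited, 0.10 in the mix and 0.06 after subtraction. Oxidative phosphorylation genes had a median of -0.02 over 62 genes, and cholesterol synthesis genes -0.13 over 19. Of 41 interferon-induced genes 0 passed 2-fold and 33 were above wild type, with a median of 0.17 (0.39 after subtraction) and the highest in Oas2, an antiviral sensor, at 0.90.

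The decreases past 2-fold were few, 38 genes in all. Cdk5rap1, which encodes an enzyme that modifies mitochondrial transfer RNA, had 1840 in wild type and 427 in knockout without MNU, against 436 and 583 with MNU. Wild type without MNU was the only library with the high level, so the difference of -2.08 (-2.09 after subtraction) rests on it.

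Haemoglobin genes were the lower genes with the highest counts. Hba-a1, an adult alpha globin, had 20709 in wild type and 7045 in knockout without MNU, against 13094 and 14613 with MNU, 2.94-fold lower without MNU (-1.55; -1.80 after subtraction). Hbb-b1, an adult beta globin, had 9000, 3023, 5136 and 6847 in the same order (-1.57). Of 10 measured erythroid genes, 5 were lower (Hba-a1, Hba-a2, Hbb-b1, Hbb-b2 and the carbonic anhydrase Car2 at -1.23), and the globin copies are near-identical pairs with near-equal values. The other 5, among them the haem enzyme Fech at 0.31 and the transferrin receptor Tfrc at 0.14, lay within 2-fold. The summed level of the list was 76903 in wild type and 35674 in knockout without MNU, against 54940 and 58980 with MNU, and Alas2 was not analysed here. How much blood each thymus held was not tested.

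The adult globin genes were lower together. The 120 bases before their RefSeq starts (GRCm38.p6, 5′ to 3′ along the gene) are given for 3 of them and hold the same 3 motifs, shown in capitals: a CCAAT box, a CACCC box and the letters TATAA. Hba-a1 lies at chr11:32283552-32283671 and Hba-a2 at chr11:32296372-32296491, both on the plus strand, and Hbb-bs, the RefSeq name for Beta-s, at chr7:103827929-103828048 on the minus strand.
Hba-a1: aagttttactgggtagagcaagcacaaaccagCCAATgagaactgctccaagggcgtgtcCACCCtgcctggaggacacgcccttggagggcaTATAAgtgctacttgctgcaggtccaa
Hba-a2: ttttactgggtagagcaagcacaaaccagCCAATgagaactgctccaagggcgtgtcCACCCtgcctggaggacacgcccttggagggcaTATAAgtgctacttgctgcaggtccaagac
Hbb-bs: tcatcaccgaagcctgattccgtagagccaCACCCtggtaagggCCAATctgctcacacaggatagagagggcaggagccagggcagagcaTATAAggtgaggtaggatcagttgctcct
The alpha globin windows share a run of 117 bases. In Hba-a1 the CCAAT box starts 88 bases before the gene's start, the CACCC box 60 bases and the TATAA 27 bases before it. In Hbb-bs these distances are 76, 90 and 29 bases, so that the order of the first pair is swapped. Hba-x, an embryonic alpha-like globin, had 115 in wild type and 35.1 in knockout without MNU (-1.47), and its window holds the CACCC box and the TATAA but no CCAAT. Searched on both strands, CCAAT occurs in 21.3% of the same window of 32851 promoters, and the CACCC box in 31.7%. The letters describe the sequence and say nothing of the factors bound.

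Genes of tissues that lie beside or within a dissected thymus were among the lower ones. Pth, the parathyroid hormone gene, had 257 in wild type and 2.22 in knockout without MNU, against 0 and 804 with MNU (-4.45). Chga, a granule protein of neuroendocrine cells, had 337, 45.8, 8.25 and 1262 in the same order (-2.64). Bpifa1, a secreted protein of airway epithelium, had 226, 80.8, 0 and 3141 (-1.38). In these 3 genes the knockout library with MNU was the highest of the 4, so the lower level was not shared by the knockout libraries. Of 5 measured parathyroid, neuroendocrine and airway genes, 3 were lower and 1 was higher (Cyp2f2), and Glycam1, of lymph node vessels, was 10.9 in wild type and 6.47 in the library labelled knockout, against 530 in knockout with MNU.

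Fat genes moved in both directions. Ucp1, the uncoupling protein of brown fat, had 3415 in wild type and 1224 in knockout without MNU, against 73.3 and 1256 with MNU (-1.47). Lep, leptin, had 2877, 1176, 0 and 403 (-1.28), and Cidea, a lipid droplet protein, was at -1.07. Cfd, the secreted protease adipsin, went the other way, with 3752, 12324, 4108 and 3185 (1.71), as did Retn, resistin, at 1.23. Of 30 measured adipocyte genes, 2 were higher and 3 lower, with a median of -0.01, and the sums were 250375 in wild type and 279531 in the library labelled knockout. Adipoq and Plin1, which mark adipocytes as a whole, were at 0.20 and -0.13.

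Other lower genes had no list in common. Npr3, the clearance receptor of natriuretic peptides, had 2627 in wild type and 766 in knockout without MNU, against 15.7 and 264 with MNU (-1.77). Fabp3, a fatty acid carrier of muscle and brown fat, had 455, 112, 9.18 and 133 (-1.94). Neu3, a plasma membrane sialidase, had 1864, 772, 3027 and 246 (-1.26), and Thbs1, thrombospondin of platelets and stroma, had 2788, 1138, 2677 and 210 (-1.29). In the last 2 genes both wild-type libraries were above both knockout libraries. Subtraction moved Neu3 to -2.33 and Thbs1 to -1.69, since both are high in wild type with MNU.

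Neutrophil genes were few in these values, with 1 of 7 measured members higher (Lcn2, 1.08) and 0 lower as deposited, and sums of 1834 in wild type and 2945 in the library labelled knockout. Stress lists gave single genes. Of 17 measured glucocorticoid-induced genes, 2 were higher, the metallothioneins Mt2 at 1.66 and Mt1 at 1.09, and the median of 0.43 fell to 0.14 after subtraction. Of 20 heat shock genes 0 passed 2-fold, where 97.1% of all genes lay within it. Of 19 measured genes in the list of p53 targets 18 lay within 2-fold. The other was Cdkn2a, a cell-cycle inhibitor gene that acts upstream of p53 and is not one of its targets, with 34.7 in wild type and 149 in knockout without MNU, against 347 and 100 with MNU (1.83; 1.46 after subtraction).

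The knockout library with MNU, set against the same wild-type library without MNU, had 166 genes (1.57%) at least 2-fold higher and 117 (1.11%) at least 2-fold lower. The comparison shares its wild-type library with the one above and differs in treatment as well as genotype. Values of single genes, list medians and list sums are set side by side, and the difference between the comparisons was not tested.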

How the data were processed

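RNA had been sequenced from thymus in 4 groups of 1 library each, and samples were grouped by the labels' genotype and MNU fields. The deposited table gives a signal for each gene, which the file headers call normalised counts. These are not whole numbers and sum to between 32911362 and 34836257 per library. Per the submitters' processing notes, which state no role or order, the tools were TopHat2 2.0.8b and edgeR and the genome build was mm9. Not given in the sources used here are the counting tool, annotation, gene filter and method of normalisation. RNA integrity numbers were above 7.5 and TruSeq libraries were made, per the labels' protocols.

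The authors' scaling was kept, and 10 was added before the log2, which understates differences of low genes. A gene was called at 2-fold. No count model, interval or p-value was computed, since the values are not reads and there was 1 library per group. The share of wild-type MNU signal was the median of (knockout without MNU - b) / (wild type with MNU - b), with b the mean of the remaining pair of libraries. Subtraction divided the rest by 1 minus the share, with a floor of 0. Near-identical copies (Mup genes, globins, Il22 and Iltifb) are uncertain individually. Since the normalisation may have shifted low values, a 0 is given as listed.

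Named genes were Camk2g, Mup2, Klrk1 and the other kinases of the family, the 15 largest increases and decreases reaching 100 in the higher library, up to 5 members of each of 44 gene lists and those past 2-fold, and 10 neighbours per side of Camk2g. Genes named outside this rule were chosen after their values were seen: defining markers of cell types, Myc, the Mup genes, the keratins and single members of lists or of the called genes. The members, lists, motifs and the mix were chosen with earlier results of these data known. Motifs were chosen after the sequences had been read. Of the symbols, 10510 matched the RefSeq table (GRCm38.p6), which was used for order and promoter sequence; window sharing was read from annotated mouse transcripts.

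Alternatives were pseudocounts of 2.5 and 40, no filter and a mean of at least 100, median-of-ratios and upper-quartile scaling, a 4-fold threshold, and the share at its median and its 5th and 95th percentile. Leaving out haemoglobin, immunoglobulin-related and the 50 most abundant genes, and taking the knockout library with MNU in place of the one without, were the others. Scripts were tested on simulated data. Python 3.11.15, pandas 2.3.3, NumPy 2.4.6 and matplotlib 3.10.9 were used.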

Additional observations from a re-analysis of the deposited data

Results flagged for a closer look

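In 199 of the 10587 genes measured the difference between knockout and wild type had opposite signs without and with MNU and passed 2-fold in both, with 174 higher and 25 lower without MNU. The 16 given here are those among the named largest increases and decreases, as deposited or after subtraction. The difference between the comparisons was not tested, since each group had 1 library. Of these 16, higher in knockout without MNU and lower with MNU were Sall3 (5.24 and -8.28), Erc2 (4.96 and -7.30), Iltifb (4.68 and -7.23), Cym (4.54 and -7.25), Sh3gl3 (4.35 and -7.51), Il22 (4.24 and -6.75), Dpf1 (3.98 and -7.61) and Vwce (3.18 and -6.22). All 8 had their highest level in wild type with MNU, and in all 8 the mix of both wild-type libraries passed 2-fold without any effect of genotype. All 8 also belong to the 42 genes that set the share. Their passing in the mix was therefore fixed by how those genes were chosen, and is no independent check of the share.

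Lower without MNU and higher with MNU were Pth (-4.45 and 6.35), Chga (-2.64 and 6.12), Fabp3 (-1.94 and 2.90), Eps8l1 (-1.92 and 2.76), Npr3 (-1.77 and 3.41), Akr1cl (-1.60 and 1.64), Vmn2r96 (-1.52 and 4.51) and Ucp1 (-1.47 and 3.93). All 8 had their lowest level in wild type with MNU, and Pth, Chga, Eps8l1 and Vmn2r96 had their highest in knockout with MNU.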

How the results depend on the processing

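No paired analysis was possible because each group had 1 library. Counts of 228 to 279 higher and 32 to 41 lower genes were found with the other pseudocounts, filters and scalings and without the most abundant genes, and those scalings moved the median of all genes by at most 0.02. The genes higher, 274, were 92 at 4-fold, 182 with the median share subtracted, 176 with its 95th percentile and 166 with knockout with MNU in place. The genes lower, 38, were 4 at 4-fold, 93 with the 95th percentile of the share and 117 with knockout with MNU in place.

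Signs are given for the genes past 2-fold that the naming rule or a gene list holds. With the median share subtracted, the sign turned for Cym (-0.022), Dpf1 (-2.09), Erc2 (-0.58), Iltifb (-0.26), Notch1 (-0.0021), Sall3 (-0.37) and Vwce (-3.47), and for the list medians of NOTCH genes (-0.033) and early thymocyte genes (-0.064). At the 5th percentile it turned for Sall3 (-0.12) and Vwce (-0.13). At the 95th percentile it turned for Ccl9 (-0.26), Cym (-0.84), Dpf1 (-2.09), Dtx1 (-6.56), Erc2 (-0.58), Gpr83 (-0.54), Hmox1 (-0.053), Il22 (-0.48), Iltifb (-0.26), Notch1 (-0.57), Sall3 (-0.37), Sh3gl3 (-1.95), Tnnt1 (-1.08) and Vwce (-3.47), and for NOTCH genes (-0.19) and early thymocyte genes (-0.30). By construction the subtraction lowers genes that are high in wild type with MNU.

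With knockout with MNU in place the sign turned for Bpifa1 (3.74), Cfd (-0.24), Chga (1.87), Cym (-0.061), Dpf1 (-0.94), Eps8l1 (0.24), Heyl (-0.38), Marco (-1.05), Pth (1.61), Retn (-0.71), Sall3 (-0.23), Sh3gl3 (-0.55), Vmn2r96 (0.30) and Vwce (-0.33). The list medians that turned there were those of NOTCH genes (-0.10), T-cell receptor genes (0.041), glucocorticoid-induced genes (-0.30) and parathyroid and airway genes (2.60); the cause was not tested. With 1 library per group no value has an error, and with unknown read depth no counting interval can be given.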

Other observations

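After subtraction of the share, 3 neutrophil genes that had lain within 2-fold passed it on the low side: S100a8 (-0.48 as deposited, -2.04 after), S100a9 (-0.46 and -1.55) and Ngp (0.43 and -1.11). S100a8 had 195 in wild type and 137 in knockout without MNU, against 671 and 522 with MNU, and S100a9 had 269 and 192 against 781 and 655. Among genes that passed on the high side only after subtraction were Il2rb, the interleukin-2 receptor beta chain of NK and memory T cells (0.99 and 1.15), the fractalkine receptor Cx3cr1 (0.94 and 1.16) and the keratin Krt14 (0.89 and 1.13).

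Of 318 genes measured on the X chromosome 19 (5.97%) were higher, and of 671 on chromosome 4, which holds the Mup genes, 39 (5.81%). Over the other chromosomes with measured genes the percentage of higher genes ran from 0.855% on chromosome 1 to 3.82% on chromosome 15. Copies of a gene were counted one by one, also where their values were identical. Genes that passed 2-fold in the mix were not left out. The percentages are therefore not read as an excess on a chromosome.

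Of 21 measured fibroblast and matrix genes 0 were higher or lower past 2-fold, 15 were above wild type and 6 below, and the median of 0.23 was 0.0076 after subtraction. Dcn, a small matrix proteoglycan, had 5781 in wild type without MNU and 11363 in knockout without MNU (0.97; 1.11 after subtraction), while Col1a1, a chain of the main fibrillar collagen, went from 0.51 as deposited to -0.34 after subtraction. Sparc, a matrix glycoprotein, was at -0.70 and -0.80.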
